A study of Homo sapiens with 6 samples.

Results

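The genes described here encode the proteins that bring fatty acids into a cell, bind and activate them, make and desaturate them, pack them into lipid droplets, release them again and burn them in mitochondria. They were chosen as a list of 52 gene symbols, and every array probe whose platform annotation carries one of these symbols was taken. Of the 52 genes, 51 had a named probe, with 81 such probes in all, and 44 genes passed the filter on dim probes, out of 11729 genes tested on the array. Expression was measured on single-colour Illumina bead arrays, where each array holds labelled cRNA of 1 sample. The samples are 3 arrays of SKOV3-OM3 cells, labelled as metastatic, and 3 arrays of SKOV3-ip1 cells, labelled as parental. Both groups carry the label SKOV3, an established human ovarian carcinoma line. No treatment or engineered allele is given for either group, and the labels do not say how OM3 was derived, whether it is 1 clone or whether each array had a culture of its own. A p-value here thus speaks of the spread among 3 arrays of a group, and that spread may be technical. The source is labelled as cells, though the extraction protocol speaks of tissues.

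A fatty acid that enters a cell is bound by a carrier protein and joined to coenzyme A. It can then be stored as triglyceride in a droplet coated by perilipins, or be carried into the mitochondrion on carnitine and shortened step by step, with electrons passed on through electron transfer flavoprotein. Cells also make fatty acids from citrate, and the product is elongated and desaturated. Ovarian cancers often spread to the omentum, a fatty tissue whose fat cells can supply neighbouring cells with fatty acids. The comparison of OM3 with ip1 sets cells labelled as metastatic against cells labelled as parental.

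Pearson's r over genes was 0.984 to 0.988 between arrays of the same group and 0.797 to 0.813 across groups. The median signal of an array was 131 to 142, and its share of probes above background was 38.1% to 42.1%. Of 11 fixed markers of ovarian carcinoma epithelium, 8 were lower (72.7%, against 25.9% of all genes) and 1 higher in OM3 (9.1%, against 31.2%). Their summed normalized signal was 9287 to 10933 on the OM3 arrays, against 42966 to 46606 on the ip1 arrays. EPCAM was the 1 higher (log2 fold change, OM3 over ip1, 0.97 ± 0.13, SE, adjusted p = 0.000324). At a log2 mean of 13.02 it was the brightest of these markers in OM3. MUC16 and CDH1 did not pass the test. The lineage factor gene SOX17 (at least 20.5-fold lower, adjusted p = 3.72e-07) and the keratin gene KRT19 (at least 217-fold lower, adjusted p = 1.01e-08) were below background on the 3 OM3 arrays. The brightest probe of PAX8, another lineage factor gene, was also below background there (at least 42.4-fold lower, adjusted p = 1.31e-08), though a dimmer PAX8 probe was above background on 1 of 3 OM3 arrays. The probes that stand for SOX17, KRT19 and PAX8 passed the filter only through ip1, so a difference was built into their selection. Another keratin gene, KRT7, was above background on 1 of 3 OM3 arrays (log2 fold change, OM3 over ip1, -7.56 ± 0.28, SE, adjusted p = 1.12e-07). The part of this marker difference in the results below was not tested. Whether the OM3 cells descend from the ip1 cells was not tested either, so each fold change compares the cells that carry these labels.

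Fatty acid genes differed between the groups in both directions, with more of the tested members higher than lower in OM3. Of the 44 tested members, 20 were higher in OM3 (45.5%, against 31.2% of all genes tested), 10 were lower (22.7%, against 25.9%) and 14 did not pass the test (limma, adjusted p under 0.05). Together 68.2% were called, and 57.1% of all genes were. At a size of at least 2-fold, 20 of the 44 were called (45.5%), against 26.6% of all genes. The median log2 fold change (OM3 over ip1) was 0.28 for the members and 0.09 for all genes, and that of the members was also 0.28 with those below background in 1 group set at their bounds. Of the members, 4 passed the filter only through the group in which they were bright, so a difference was built into their selection: CD36 and ACAA2 through OM3, MGLL and ACSL5 through ip1. Probes above background on all 6 arrays gave 17 higher and 6 lower of 36 members tested. Under that filter 3288 genes were higher and 2135 lower of all 8930 tested (60.7% called). The RNA is a bulk extract, in which fewer cells of a type and less RNA per cell cannot be told apart.

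**Figure D1:**
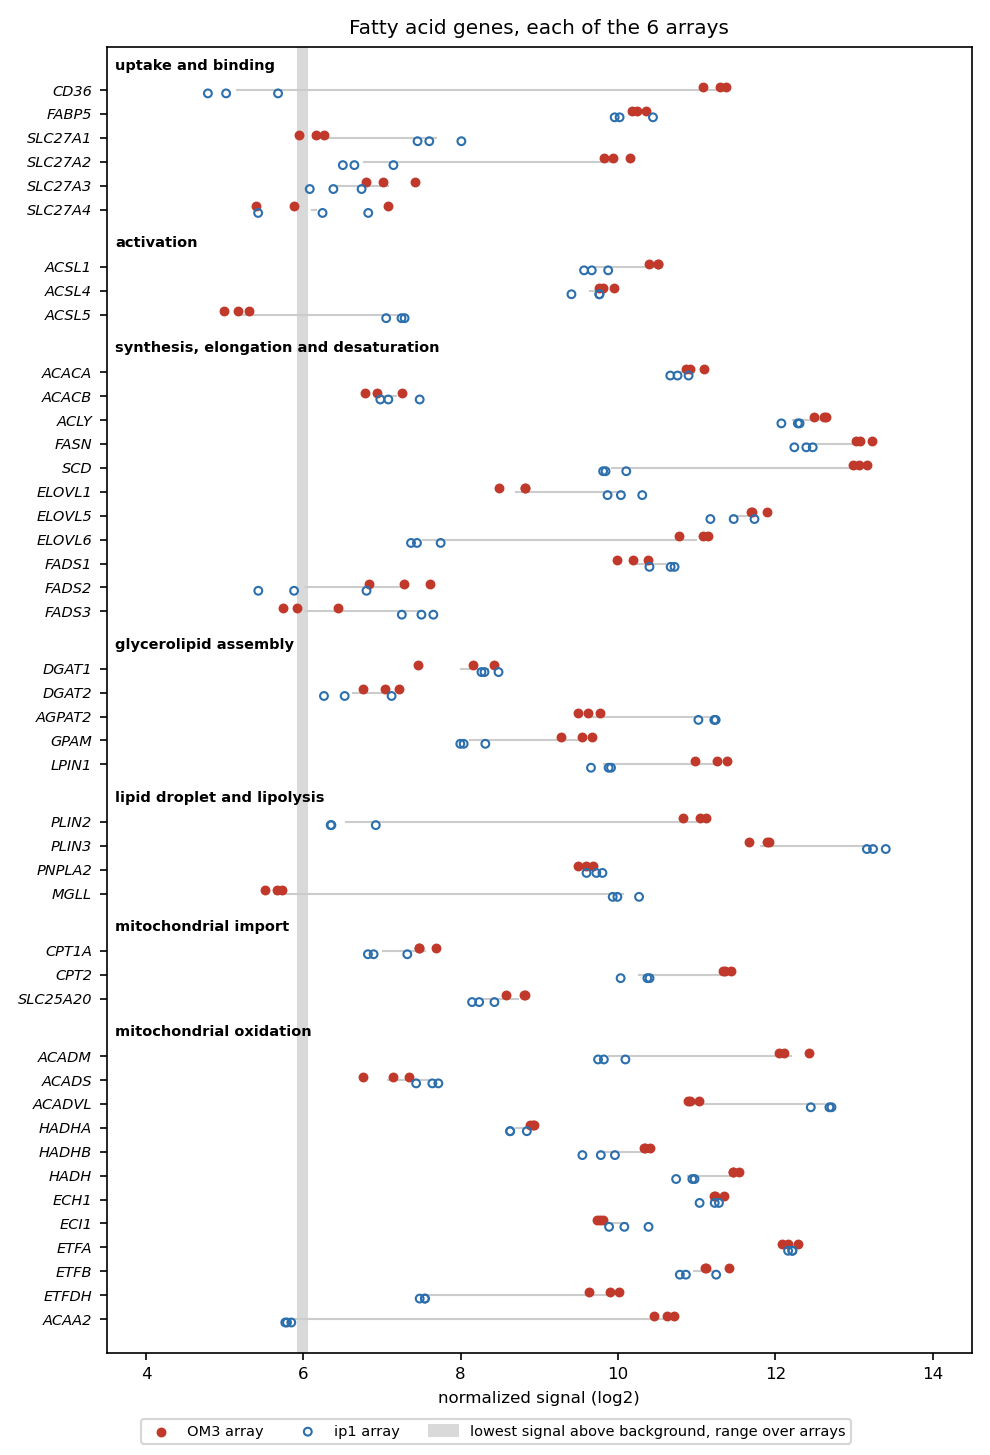
Normalized signal (log2) of the 44 tested fatty acid genes on each of the 6 arrays, grouped by role. Filled points are the 3 OM3 arrays, open points the 3 ip1 arrays, grey lines join the group means and the grey band marks the lowest signals above background. CD36, PLIN2, ACAA2 and MGLL show the widest gaps between the groups.

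Among the uptake and binding proteins, 3 of the 6 tested members were higher in OM3, 1 was lower and 2 did not pass. Calls made up 66.7%, against 57.1% of all genes. CD36, a membrane receptor that takes up long-chain fatty acids, had log2 signals of 11.30, 11.08 and 11.38 on the OM3 arrays, against 4.79, 5.68 and 5.02 on the ip1 arrays. The gene was bright on every OM3 array and below background on every ip1 array, so its change is a bound: CD36 rose by a factor of at least 39.3 (adjusted p = 1.10e-07). Its other 2 probes also lay above background only on the 3 OM3 arrays, with log2 means of 9.58 and 7.12 there (adjusted p over all probes = 8.37e-07 and 0.000792).

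SLC27A2, a fatty acid transport protein that also activates very long chains, had log2 signals of 9.82, 10.15 and 9.93 in OM3, against 7.15, 6.65 and 6.50 in ip1. Its groups lay well apart, with a log2 fold change of 3.20 ± 0.19 (SE, n = 3 + 3, adjusted p = 1.68e-06). SLC27A1, the transport protein known from muscle and fat, went the other way, with 6.26, 5.94 and 6.16 in OM3, against 7.45, 8.01 and 7.60 in ip1. That is a log2 fold change of -1.57 ± 0.18 (adjusted p = 9.13e-05), with the probe above background on 2 of 3 OM3 arrays, and values without background correction gave -0.92. SLC27A3 was slightly higher, with log2 signals of 7.01, 6.80 and 7.41 in OM3, against 6.74, 6.08 and 6.38 in ip1 (0.67 ± 0.21, adjusted p = 0.0250). Its groups are separated by a small gap, and the call was lost without replicate 3 of OM3 (adjusted p = 0.0832), without replicate 2 of ip1 (0.0870) or 3 of ip1 (0.0607), and with no filter (0.0622). SLC27A4 was above background on 1 of 3 OM3 and 2 of 3 ip1 arrays and spread widely within each group (log2 fold change -0.05, 95% interval -1.09 to 0.99).

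The cytosolic carrier FABP5 was well measured and close between the groups. Its log2 signals were 10.36, 10.18 and 10.24 in OM3, against 10.44, 10.02 and 9.96 in ip1, overlapping ranges with a log2 fold change of 0.12 (95% interval -0.25 to 0.49). Its other probes past the filter gave -0.09 and -0.29 and were not called either, and since FABP5 has many close pseudogene copies its probes are uncertain to that extent. FABP4, the carrier of fat cells and macrophages, was below background on the 6 arrays. FABP3, the heart carrier, and FABP6, the bile acid carrier of the ileum, were below it on the 3 OM3 arrays and above it on 2 of 3 ip1 arrays, and these 3 genes did not pass the filter.

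Of the markers of fat cells, macrophages and endothelium, most did not pass the filter and none of those tested was called higher in OM3. Their part in the CD36 difference was not tested. Of 17 fat cell markers, 15 had a named probe and 3 passed the filter, with none higher and 2 lower in OM3. The summed linear signal of the 15, dim genes included, was 1154 to 1250 on the OM3 arrays, against 2241 to 3176 on the ip1 arrays. CIDEA, GPD1, RBP4, PCK1 and FABP4 were above background on no array, and no probe of ADIPOQ, the adiponectin gene, on more than 1 of the 6. CFD, the complement factor of fat cells, was lower in OM3 (log2 fold change -2.50 ± 0.17, adjusted p = 4.27e-06). It was the brightest of the 3 in ip1 (log2 mean 10.67, against 8.17 in OM3), and LEP did not pass. PLIN1, the perilipin of fat cells, was below background on the 3 OM3 arrays and dim in ip1 (log2 signals of 5.97 to 6.04). It was called lower (adjusted p = 0.000357), but its bound was only 1.00-fold. Of 12 macrophage markers, 5 were tested, with none higher and 1, CD68, lower (4.01-fold, adjusted p = 2.53e-05). The sum over all 12, dim genes included, was 1150 to 1243 in OM3, against 2360 to 2992 in ip1. CD68 was the brightest of those tested (log2 mean 9.07 in OM3, against 11.07 in ip1). The other 4 tested did not pass, and CSF1R and ITGAM were above background on no array. Of 10 endothelial markers, 4 were tested and none was called by limma, nor did any reach an unadjusted p under 0.05, with sums of 547 to 613 in OM3, against 508 to 619 in ip1. CDH5, VWF, CLDN5 and ROBO4 were above background on no array.

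The marker list of fibroblasts and mesothelium changed in both directions. Of its 12 genes, 10 were tested. Of these, 6 were higher (60%, against 31.2% of all genes) and 3 lower in OM3 (30%, against 25.9%). The probes that stand for 7 of the 10 were above background in 1 group only, so a difference was built into their selection. The sum over all 12, which pools genes that went up and genes that went down, was 4013 to 5010 in OM3, against 3315 to 3563 in ip1. The collagen gene COL3A1 (at least 45.4-fold, adjusted p = 8.66e-08) and the proteoglycan gene DCN (at least 6.28-fold, adjusted p = 1.09e-06) were higher, and the mesothelial genes MSLN (at least 29.3-fold, adjusted p = 1.24e-07) and LRRN4 (at least 13.0-fold, adjusted p = 1.30e-07) lower. PDGFRB was above background on no array. The part of these genes too in the changes of the fatty acid genes was not tested.

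Activation to coenzyme A esters was mixed. ACSL1, the main acyl-CoA synthetase of fat and muscle, had log2 signals of 10.51, 10.51 and 10.40 in OM3, against 9.88, 9.57 and 9.67 in ip1, and rose by 0.77 ± 0.13 on the log2 scale (adjusted p = 0.00125). ACSL5, a synthetase known from intestine and liver, had 5.17, 5.30 and 5.00 in OM3, all below background, against 7.29, 7.25 and 7.05 in ip1, and was at least 2.30-fold lower in OM3 (adjusted p = 4.46e-06). Its other 4 probes did not pass the filter. ACSL4, which prefers arachidonate, overlapped between the groups (log2 fold change 0.20, 95% interval -0.14 to 0.53). ACSL3 had no named probe.

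In fatty acid synthesis, elongation and desaturation, 5 of 11 tested members were higher in OM3, 3 were lower and 3 did not pass. Calls made up 72.7%, against 57.1% of all genes. The enzymes that elongate palmitate and desaturate its products had the widest gaps. SCD, which turns saturated into monounsaturated fatty acids, had log2 signals of 13.17, 13.06 and 12.99 in OM3, against 10.10, 9.84 and 9.81 in ip1, a log2 fold change of 3.16 ± 0.14 (adjusted p = 2.85e-07). ELOVL6, which elongates palmitate to stearate, had 11.08, 10.78 and 11.14 in OM3, against 7.75, 7.37 and 7.44 in ip1, a change of 3.48 ± 0.16 (adjusted p = 3.82e-07). Every OM3 array was far above every ip1 array for both genes. The second ELOVL6 probe was at 8.97, 9.10 and 9.37 in OM3 and below background on the 3 ip1 arrays.

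FASN, the synthase that makes palmitate, was at 13.08, 13.23 and 13.03 in OM3, against 12.48, 12.39 and 12.24 in ip1, and rose by 0.74 ± 0.13 on the log2 scale (adjusted p = 0.00142). Upstream of it the differences were small. ACLY, which cleaves citrate to acetyl-CoA, had log2 signals of 12.65, 12.62 and 12.49 in OM3, against 12.29, 12.08 and 12.31 in ip1, without overlap. Its change of 0.36 ± 0.13 just passed over genes (adjusted p = 0.0419) but not over probes (0.0536), and its other probe was not called (adjusted p = 0.980). ACLY did not pass with no filter (adjusted p = 0.111), cyclic loess (0.0833) or the mean of its probes (0.254), nor in any of the 6 fits that left out 1 array (adjusted p from 0.0533 without replicate 1 of ip1 to 0.123 without replicate 2 of ip1). The acetyl-CoA carboxylase genes ACACA, of the cytosolic enzyme, and ACACB, of the enzyme at the mitochondrion, overlapped between the groups, with log2 fold changes of 0.19 (95% interval -0.12 to 0.49) and -0.19 (-0.61 to 0.23).

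The elongase ELOVL1, which makes saturated very long chains, was lower in OM3, at 8.49, 8.82 and 8.81, against 10.04, 10.31 and 9.87 in ip1 (log2 fold change -1.36 ± 0.16, adjusted p = 0.000139). ELOVL5, an elongase of polyunsaturated chains, overlapped between the groups (0.31, 95% interval -0.07 to 0.69) and was called higher without replicate 1 of ip1 (adjusted p = 0.0449). The 3 FADS desaturase genes, neighbours in the genome, did not move together. FADS2, which starts the desaturation of polyunsaturated fatty acids, was at 7.29, 7.61 and 6.84 in OM3, against 6.80, 5.43 and 5.88 in ip1, where 1 of 3 arrays was above background (1.21 ± 0.34, adjusted p = 0.0142). Its lowest OM3 value lay just above its highest ip1 value. FADS3, a desaturase of sphingoid bases, was at 5.91, 5.75 and 6.44 in OM3, with 1 of 3 arrays above background, against 7.65, 7.502 and 7.25 in ip1 (-1.43 ± 0.20, adjusted p = 0.000357). FADS1, a later desaturase of the polyunsaturated path, was at 10.38, 9.99 and 10.19 in OM3, against 10.72, 10.40 and 10.67 in ip1. Its change of -0.41 ± 0.15 (adjusted p = 0.0485) lay at the threshold, was -0.24 with median centring (adjusted p = 0.254), and the call was also lost with no filter (0.116), without replicate 2 (adjusted p = 0.149) or 3 (0.0979) of OM3 and without replicate 1 (0.121) or 3 (0.129) of ip1.

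The 250 bases before the RefSeq transcription start (GRCh38.p14) are printed for SCD and ELOVL6, since these rose most in this group, and further down for PLIN2, PLIN3 and ACAA2. Capitals mark matches, on either strand, to any of 6 short motifs: the CCAAT box, the GC box (GGGCGG), the E-box (CACGTG), the TATA box (TATAAA), a nuclear receptor half-site (AGGTCA) and a core of sterol response elements (CACCCCAC). A match is a description and not a binding site.
SCD, chr10:100346983-100347232, plus strand: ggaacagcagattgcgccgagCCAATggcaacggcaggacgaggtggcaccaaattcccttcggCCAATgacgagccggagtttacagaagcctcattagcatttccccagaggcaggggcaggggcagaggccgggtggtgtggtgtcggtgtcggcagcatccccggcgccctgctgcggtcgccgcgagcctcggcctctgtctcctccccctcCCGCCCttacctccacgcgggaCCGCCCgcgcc
ELOVL6, chr4:110198616-110198865, minus strand: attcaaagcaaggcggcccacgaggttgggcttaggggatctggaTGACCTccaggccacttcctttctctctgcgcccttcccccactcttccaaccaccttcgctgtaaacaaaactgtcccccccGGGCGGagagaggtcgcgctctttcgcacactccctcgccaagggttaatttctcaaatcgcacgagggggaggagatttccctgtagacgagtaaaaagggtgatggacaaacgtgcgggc

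The SCD window holds CCAAT at 229 and 186 bases before the start and GGGCGG, on the opposite strand, at 33 and 11. The ELOVL6 window holds GGGCGG at 122 and AGGTCA, on the opposite strand, at 205. Of 35116 such windows in the RefSeq table, 32.0% hold CCAAT, 42.6% GGGCGG, 6.3% CACGTG, 10.7% TATAAA, 12.1% AGGTCA and 2.4% CACCCCAC. Among the 63 windows of the 42 members with an entry, which partly overlap, the shares were 30.2%, 61.9%, 3.2%, 7.9%, 6.3% and 6.3%. None of the matches marked in the printed windows overlaps another.

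In glycerolipid assembly, which builds triglyceride step by step, 2 of 5 tested members were higher in OM3, 1 was lower and 2 did not pass. Calls made up 60%, near the 57.1% of all genes. GPAM, the mitochondrial acyltransferase that adds the first acyl chain to glycerol phosphate, had log2 signals of 9.54, 9.27 and 9.67 in OM3, against 8.31, 8.04 and 7.995 in ip1 (log2 fold change 1.38 ± 0.16, adjusted p = 0.000102). Its second probe gave 1.15 ± 0.19. AGPAT2, which adds the next chain, went the opposite way, at 9.78, 9.49 and 9.61 in OM3, against 11.24, 11.22 and 11.02 in ip1 (-1.54 ± 0.14, adjusted p = 2.37e-05). All 3 AGPAT2 probes were lower, down to a log2 fold change of -2.48 ± 0.16.

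LPIN1, the phosphatase that follows, was at 11.25, 10.97 and 11.39 in OM3, against 9.88, 9.66 and 9.91 in ip1, and rose by 1.39 ± 0.15 on the log2 scale (adjusted p = 8.51e-05). For the enzymes of the final step, DGAT1 and DGAT2, the groups overlapped, with log2 fold changes of -0.34 (95% interval -0.87 to 0.20) and 0.37 (-0.15 to 0.89). Without replicate 1 of ip1, DGAT2 passed the test as higher (0.61, adjusted p = 0.0239).

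On the lipid droplet, the coat gene PLIN2 and MGLL, the gene of the last lipase of the path, had the widest gaps, in opposite directions. PLIN2, the perilipin found on droplets of most cells, had log2 signals of 11.05, 10.83 and 11.12 in OM3, against 6.92, 6.36 and 6.35 in ip1, a log2 fold change of 4.46 ± 0.18 (adjusted p = 2.03e-07). Both groups were above background on every array and lay far apart, and the second PLIN2 probe gave 3.05 ± 0.16. PLIN3, a perilipin that moves between cytosol and droplets, was at 11.66, 11.92 and 11.89 in OM3, against 13.16, 13.40 and 13.24 in ip1, a change of -1.45 ± 0.14 (adjusted p = 3.38e-05).

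MGLL, which splits the last fatty acid off glycerol, was at 5.67, 5.73 and 5.52 in OM3, all below background, against 9.99, 9.93 and 10.27 in ip1, where every array was bright. It was at least 16.8-fold lower in OM3 (adjusted p = 5.02e-08), and its second probe past the filter was also below background on the 3 OM3 arrays. PNPLA2, the lipase that takes the first step of triglyceride breakdown, overlapped between the groups, with 9.60, 9.68 and 9.49 in OM3, against 9.80, 9.72 and 9.60 in ip1 (log2 fold change -0.12, 95% interval -0.41 to 0.18). LIPE (hormone-sensitive lipase), PNPLA3 and the secreted lipase LPL did not pass the filter, with no array above background for PNPLA3, 1 of 3 ip1 arrays for LIPE and 1 of 3 OM3 arrays for LPL.

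The windows before the starts of PLIN2 and PLIN3 are shown because these related genes changed in opposite directions.
PLIN2, chr9:19127493-19127742, minus strand: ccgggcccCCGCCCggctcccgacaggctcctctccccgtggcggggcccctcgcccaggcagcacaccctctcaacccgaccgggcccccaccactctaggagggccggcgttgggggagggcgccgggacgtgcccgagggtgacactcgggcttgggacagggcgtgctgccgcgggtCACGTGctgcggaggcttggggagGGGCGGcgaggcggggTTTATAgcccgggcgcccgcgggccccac
PLIN3, chr19:4867668-4867917, minus strand: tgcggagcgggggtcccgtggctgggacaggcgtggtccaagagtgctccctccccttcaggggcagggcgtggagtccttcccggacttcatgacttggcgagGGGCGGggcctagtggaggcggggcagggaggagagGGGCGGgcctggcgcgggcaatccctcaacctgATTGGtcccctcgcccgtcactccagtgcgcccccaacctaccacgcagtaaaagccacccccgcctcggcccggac

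In the PLIN2 window, CACGTG lies at 69 bases before the start, GGGCGG at 45 and, on the opposite strand, at 242, and TATAAA on the opposite strand at 29. The PLIN3 window holds GGGCGG at 146 and 110 and CCAAT on the opposite strand at 77, with none of the other motifs.

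**Figure D2:**
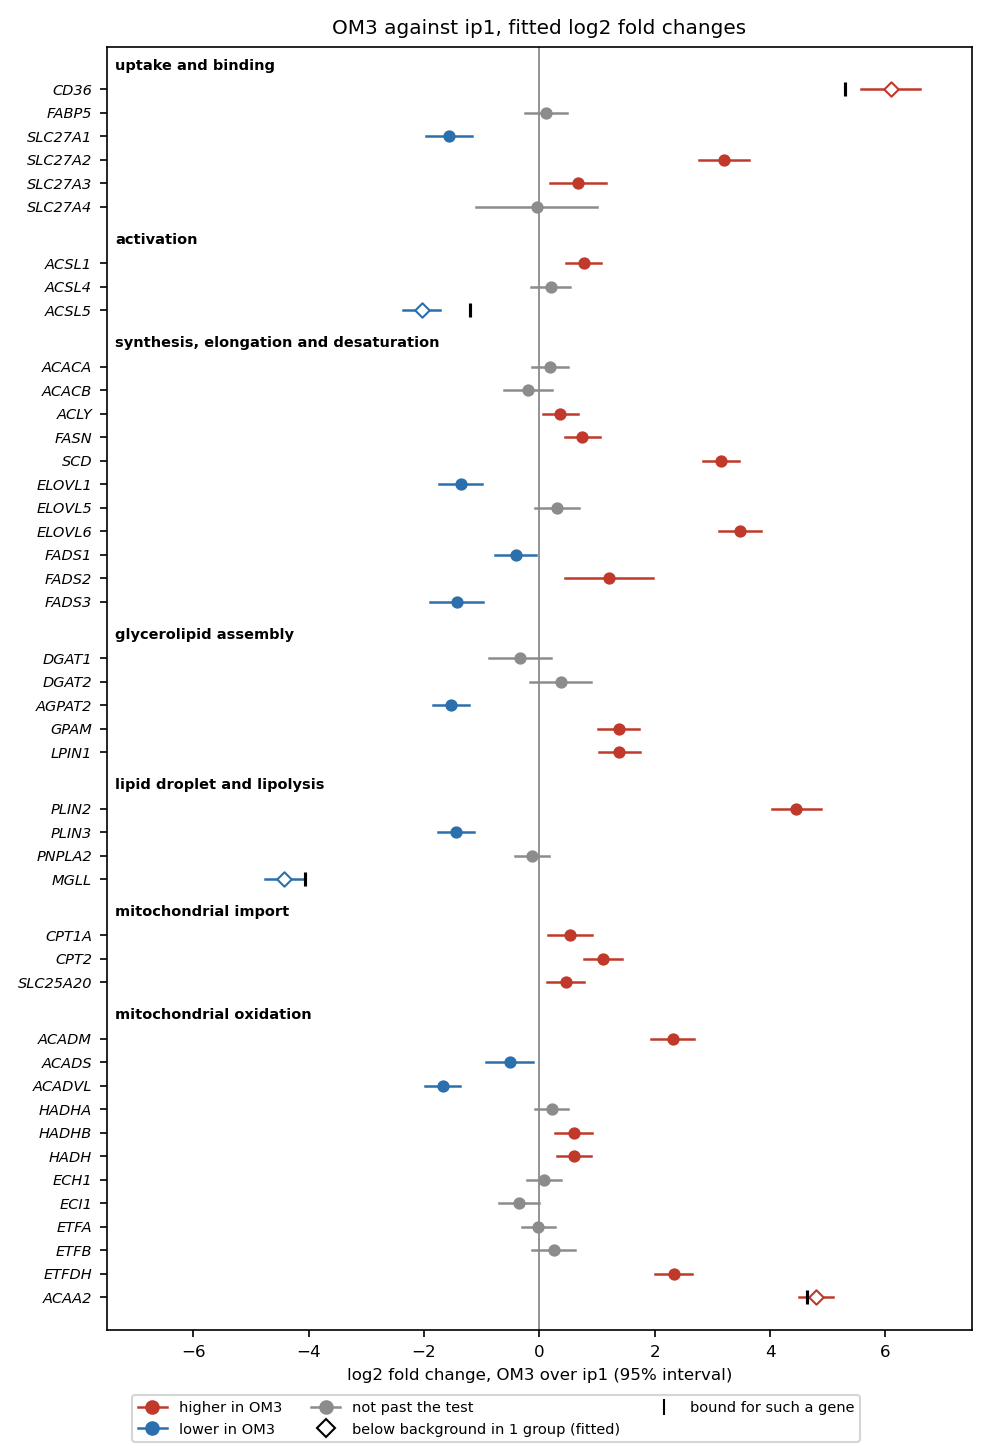
Fitted log2 fold change of OM3 over ip1 for the 44 tested genes, with 95% intervals, grouped by role. Red is higher in OM3, blue lower and grey not past the test, and open diamonds are genes below background in 1 group, with a black tick at their bound. Fold changes run from at least 16.8-fold lower for MGLL to at least 39.3-fold higher for CD36.

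All 3 members of the carnitine shuttle were higher in OM3 (31.2% of all genes were), CPT2 by over 2-fold and the others by less. Relatives of CPT1A on the wider list, CPT1B and CPT1C, went opposite ways and are given below. CPT2, which releases the fatty acid inside the mitochondrion, was at 11.34, 11.44 and 11.36 in OM3, against 10.03, 10.37 and 10.40 in ip1 (log2 fold change 1.11 ± 0.14, adjusted p = 0.000215). CPT1A, the rate-limiting step at the outer membrane, was at 7.69, 7.47 and 7.48 in OM3, against 6.89, 7.32 and 6.82 in ip1 (0.53 ± 0.17, adjusted p = 0.0229). SLC25A20, the carrier across the inner membrane, was at 8.80, 8.81 and 8.57 in OM3, against 8.24, 8.43 and 8.14 in ip1 (0.46 ± 0.14, adjusted p = 0.0210). Only CPT2 kept its call under all alternatives tried. With cyclic loess normalization or with no filter, and without replicate 1 of OM3 or replicate 3 of ip1, 1 of the 3 genes was called, and without replicate 1 of ip1 CPT1A was not (adjusted p = 0.0641), nor was SLC25A20 without replicate 2 of OM3 (0.0652). The second probes of CPT1A and SLC25A20 gave 0.21 and 0.45 and were not called over all probes (adjusted p = 0.237 and 0.0651).

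Within mitochondrial oxidation, 5 of 12 tested members were higher in OM3, 2 were lower and 5 did not pass. Calls made up 58.3%, near the 57.1% of all genes. Without replicate 1 or 2 of OM3 or replicate 2 of ip1 only 1 was lower. The acyl-CoA dehydrogenases, which take the first step for chains of different length, went different ways. ACADM, for medium chains, had log2 signals of 12.12, 12.04 and 12.43 in OM3, against 10.09, 9.75 and 9.82 in ip1 (log2 fold change 2.31 ± 0.16, adjusted p = 4.61e-06), and its second probe gave 2.02 ± 0.17. ACADVL, for very long chains, was at 10.92, 10.89 and 11.03 in OM3, against 12.45, 12.69 and 12.71 in ip1 (-1.67 ± 0.13, adjusted p = 1.11e-05), and all 3 of its probes were lower. Neither gene showed any overlap between the groups.

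ACADS, for short chains, was at 7.14, 6.76 and 7.34 in OM3, against 7.72, 7.64 and 7.43 in ip1 (-0.52 ± 0.17, adjusted p = 0.0324). That small gap did not last in every fit: the call was lost with no filter (adjusted p = 0.0812), without replicate 1 (0.0593) or 2 (0.0999) of OM3, and without replicate 1 (0.0869) or 2 (0.0808) of ip1. ACADL, for long chains, did not pass the filter, with 1 of 3 arrays of each group above background.

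At the later steps of the cycle 3 genes were higher in OM3. ACAA2, the thiolase that cuts off acetyl-CoA, was at 10.45, 10.62 and 10.71 in OM3 and below background on the 3 ip1 arrays (5.77, 5.79 and 5.85), a rise of at least 25.0-fold (adjusted p = 2.09e-08). HADHB, the beta subunit of the trifunctional protein, was at 10.40, 10.34 and 10.33 in OM3, against 9.96, 9.78 and 9.55 in ip1 (0.59 ± 0.14, adjusted p = 0.00703). HADHA, its alpha subunit, was at 8.92, 8.93 and 8.88 in OM3, against 8.63, 8.63 and 8.84 in ip1, and its change of 0.21 (95% interval -0.08 to 0.50) did not pass. HADH, the dehydrogenase for shorter hydroxy chains, was at 11.47, 11.46 and 11.53 in OM3, against 10.95, 10.97 and 10.74 in ip1 (0.60 ± 0.13, adjusted p = 0.00364).

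ETFDH, which hands electrons from electron transfer flavoprotein to ubiquinone, was at 9.90, 9.64 and 10.02 in OM3, against 7.54, 7.48 and 7.55 in ip1 (2.33 ± 0.14, adjusted p = 1.91e-06). The flavoprotein's own subunit genes overlapped between the groups, ETFA with a log2 fold change of -0.02 (95% interval -0.30 to 0.26) and ETFB with 0.25 (-0.13 to 0.63). Of the isomerases needed for unsaturated chains, ECH1 overlapped (0.08, 95% interval -0.21 to 0.38). ECI1 was at 9.77, 9.73 and 9.81 in OM3, against 9.89, 10.39 and 10.08 in ip1, a change of -0.35 (-0.70 to 0.00) that did not pass (adjusted p = 0.0821) but did without replicate 1 of ip1 (0.0304), with cyclic loess (0.0322), without background correction (0.0344) and in the authors' value table (0.0305).

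Because ACAA2 had the largest change of the oxidation genes, the window before its start is printed here. It holds none of the 6 motifs, which says only that these letters are absent from this window.
ACAA2, chr18:49813534-49813783, minus strand: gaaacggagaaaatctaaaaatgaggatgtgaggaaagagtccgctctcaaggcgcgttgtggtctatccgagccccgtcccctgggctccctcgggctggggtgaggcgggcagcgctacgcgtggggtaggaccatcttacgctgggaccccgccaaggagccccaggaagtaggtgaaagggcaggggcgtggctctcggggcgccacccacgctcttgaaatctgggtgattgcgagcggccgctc

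Probes of 1 gene mostly gave the same answer. Of the 63 member probes past the filter, 39 were called over all probes (61.9%, against 51.3% of the 19002 probes tested). Of those 19002, 15748 carry a single gene symbol, as all member probes do. Of 15 members with more than 1 such probe, 13 had the same call for each and none had calls in opposite directions. The exceptions were CPT1A and SLC25A20, where the brighter probe was called and the dimmer was not.

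**Figure D3:**
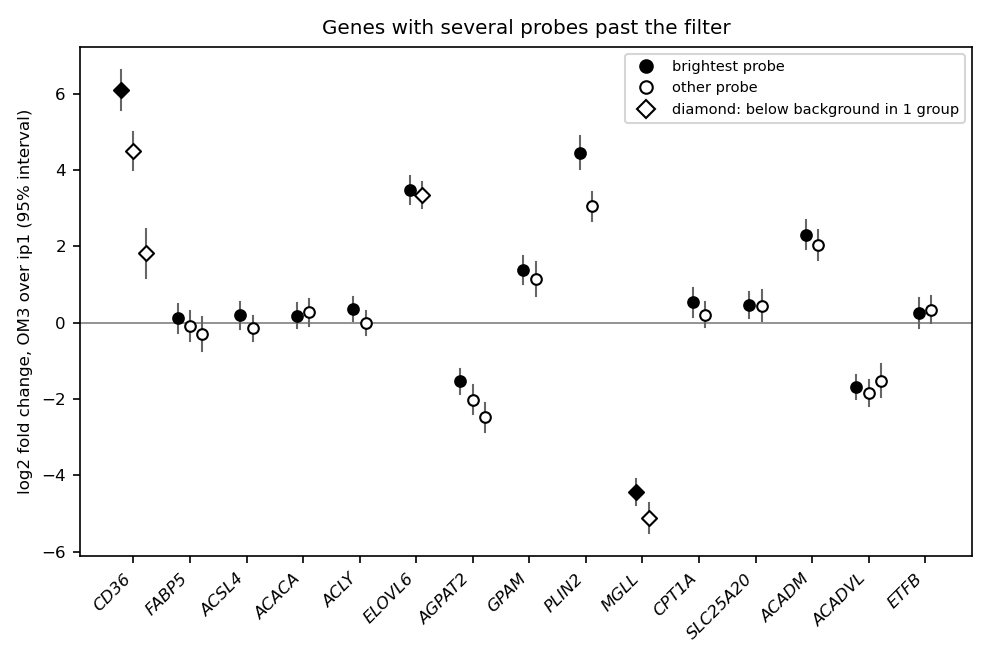
Log2 fold change of OM3 over ip1, with 95% intervals, for each probe past the filter of the 15 fatty acid genes that have more than 1. Filled symbols are the brightest probe of a gene, which stands for it, open symbols the others, and diamonds are probes below background in 1 group. The AGPAT2, ACADVL and MGLL probes all lie below 0 and those of CD36, ELOVL6, PLIN2, GPAM and ACADM all above it.

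The wider pathway was read from a list of 121 further genes, of which 94 were tested. Of these, 34 were higher and 31 lower in OM3 (69.1% called, against 57.1% of all genes). Of the 94, 6 were above background in 1 group only, so a difference was built into their selection. Higher calls made up 36.2% and lower calls 33.0%, against 31.2% and 25.9% of all genes. The median log2 fold change of the list was 0.00, against 0.09 for all genes. Among regulators, 5 of 22 were higher and 8 lower, or 5 lower without replicate 1 of OM3 (59.1% called, again beside 57.1% of all genes). SREBF1, the transcription factor that drives lipogenic genes, was at 9.57, 9.87 and 9.40 in OM3, against 7.98, 8.24 and 8.37 in ip1 (log2 fold change 1.42 ± 0.17, adjusted p = 0.000135). MBTPS2, a protease that releases such factors from the membrane, was also higher (0.88 ± 0.14, adjusted p = 0.00066). PPARG, the nuclear receptor of fat cell genes, was at 6.85, 6.98 and 7.23 in OM3, against 10.43, 10.24 and 10.20 in ip1 (-3.27 ± 0.15, adjusted p = 3.42e-07). Its partner receptor gene RXRA was lower as well (-1.88 ± 0.16, adjusted p = 1.79e-05).

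Among paralogs and further enzymes of uptake, activation and synthesis, 7 of 19 were higher and 6 lower (68.4% called, against 57.1% of all genes). The elongase gene ELOVL4 (3.27 ± 0.19, adjusted p = 1.49e-06) and ME1, whose enzyme makes NADPH for synthesis (1.90 ± 0.17, adjusted p = 2.31e-05), were higher. Lower were the elongase genes ELOVL7 (-1.81 ± 0.14, adjusted p = 9.67e-06, above background on 2 of 3 OM3 arrays) and ELOVL2 (-1.73 ± 0.25, adjusted p = 0.000375, on 1 of 3). The elongases thus went both ways in the list as among the members.

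Of 21 tested genes of storage and lipolysis, 8 were higher and 7 lower (71.4% called, against 57.1% of all genes). GPAT3, an acyltransferase of the same step as GPAM, had a log2 fold change of -3.28 ± 0.16 (adjusted p = 4.45e-07), and AGPAT4, a relative of AGPAT2, one of -2.61 ± 0.20 (adjusted p = 8.58e-06). Other relatives of AGPAT2 were higher, AGPAT5 (1.40 ± 0.18, adjusted p = 0.000191) and AGPAT1 (0.80 ± 0.14, adjusted p = 0.00119), both named after their values were seen. G0S2, an inhibitor of the lipase PNPLA2, was at least 3.80-fold lower (adjusted p = 7.88e-07) and the lipoprotein receptor gene VLDLR at least 2.93-fold lower (adjusted p = 2.91e-05), both below background on the 3 OM3 arrays. LIPA, the lysosomal acid lipase gene, was 3.73-fold higher (adjusted p = 1.76e-05) and is named after its value was seen, since its change exceeded the VLDLR bound.

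Of 32 further oxidation genes, 14 were higher and 10 lower, or 6 lower without replicate 1 or replicate 3 of OM3. With all 6 arrays 75.0% were called, against 57.1% of all genes. CPT1C, the brain relative of CPT1A, was at 9.49, 9.87 and 9.81 in OM3, against 5.99, 6.17 and 6.08 in ip1 (3.64 ± 0.15, adjusted p = 1.75e-07). CPT1B, another relative of CPT1A, was lower (-0.64 ± 0.18, adjusted p = 0.0157) and is named after its value was seen. OXCT1, which lets cells use ketone bodies, was higher (1.91 ± 0.17, adjusted p = 2.30e-05), and BDH1, another ketone body enzyme, was at least 1.38-fold lower (adjusted p = 3.84e-05). The peroxisomal oxidase gene ACOX2 was at least 6.00-fold lower (adjusted p = 4.45e-07). Both ACOX2 and BDH1 were below background on the 3 OM3 arrays. PEX5, a receptor gene of peroxisomal protein import, was 2.78-fold higher (adjusted p = 2.85e-05) and is likewise named after its value was seen. Its fitted change was the next in size after BDH1 and exceeded the BDH1 bound. Further called genes of this list, higher and lower, also exceeded that bound and are not named.

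**Figure D4:**
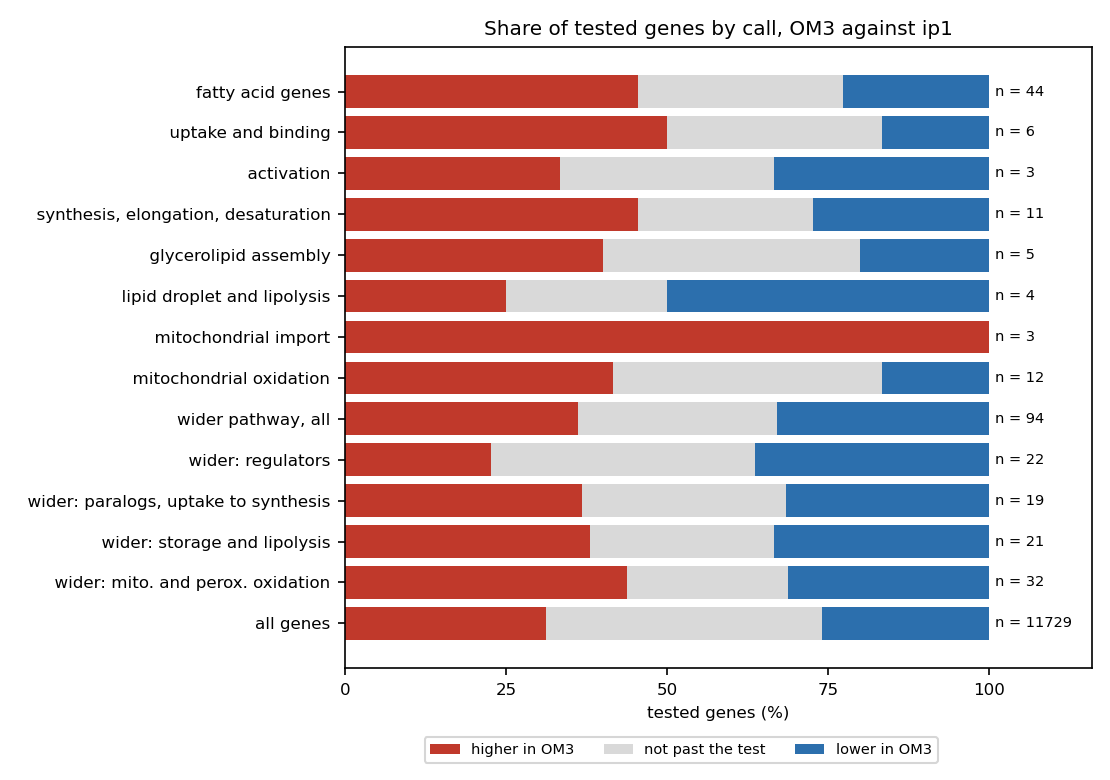
Share of tested genes (%) that were higher in OM3, did not pass the test or were lower in OM3, for the fatty acid genes, their roles, the wider pathway lists and all genes, with the number tested beside each bar. Higher calls make up 45.5% of the fatty acid genes and 31.2% of all genes, and lower calls 22.7% and 25.9%.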

How the data were processed

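RNA was extracted (mirVana kit) and amplified to biotin-labelled cRNA, per the labels' protocols. The deposited table of linear probe intensity (48799 probes, no detection p-values, no control probes) comes from BeadStudio per the submitters' processing notes, with no version given. Its column names give the group only, so replicates are numbered in column order, and 3 columns that match no sample were not used. A second table of log2 values deposited by the authors, with a common median of 7.00, served as an alternative.

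Signals were corrected with normexp (offset 16, fitted on all probes), quantile normalized and set to log2. This fold scale shrinks changes of dim genes. Background was read from the mode of each array's log2 signals (kernel bandwidth 0.02) and the SD below it. Probes above it (one-sided normal p of 0.05) on at least 3 of 6 arrays were kept (19002). Symbols came from the platform annotation, updated through RefSeq (GRCh38.p14), and 1 probe, the brightest, stood for each gene. The comparison used limma 3.58.1 and R 4.3.3 (two-sided, Benjamini-Hochberg over all genes or all probes), tested on simulated data. The median SE of a log2 fold change was 0.160, limited by the number of arrays. If all arrays of 1 group lay below background, "at least N-fold" sets the bright group's mean against the higher of the dim probe and the lowest signal above background.

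The members and lists were chosen with earlier results of these data known. All 30 called members are given in full, and up to 4 changed genes of each further list, by size of the fitted change, which for genes below background in 1 group exceeds the printed bound. LIPA, PEX5, EPCAM, CPT1B, AGPAT1 and AGPAT5 are added to these.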

Additional observations from a re-analysis of the deposited data

How the results depend on the processing

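Of the 30 members called, 24 kept direction and call under each of the 15 alternatives that gave a value, none turned its direction, and 6 (SLC27A3, ACLY, FADS1, CPT1A, SLC25A20 and ACADS) lost the call in some. Requiring all 6 arrays above background left no value for CD36, SLC27A1, SLC27A4, ACSL5, FADS2, FADS3, MGLL and ACAA2. It gave 6 lower members in place of 10, since 36 were tested, with 0 lower for uptake and for activation and 1 for droplets, and 3 and 4 lower for the wider lists of paralogs and of storage. Testing all probes unfiltered gave 2 lower for uptake, 1 higher for import, 1 lower for oxidation, and 5, 3 and 6 lower for wider regulators, paralogs and oxidation. Cyclic loess, which moved the median of all genes by -0.107, gave 1 higher for import, and 17 higher and 11 lower members. With it 3077 genes were higher and 3492 lower of all 11729 tested. The cause was not tested.

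With 1 array left out (filter and probes kept), members higher ran from 16 to 20 and lower from 8 to 9, import higher from 1 to 3, oxidation lower from 1 to 2, and wider regulators and oxidation lower from 5 to 8 and from 6 to 9. Values without background correction and the authors' value table gave smaller changes for dim genes: ACSL5 -0.95 and -0.84, FADS2 0.64 and 0.57, FADS3 -0.80 and -0.71, SLC27A1 -0.92 and -0.83, SLC27A3 0.38 and 0.34. ACLY was 0.18 with the mean of its probes. Offset 50 and the stricter background probability of 0.01 changed no member's call. No paired analysis was possible because the sample titles of the groups share no replicate number, and the numbers in the column names could not be tied to samples. Signal over background limits the dim members, and the 3 arrays per group limit small changes.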
